A study of Mus musculus with 21 samples.

Results

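The RNA exosome is the 3′ to 5′ decay machine of the cell, and 10 genes that encode it were followed here in mouse embryonic stem cells (ESCs) with and without the RNA helicase DDX6. The 10 genes were chosen by symbol, as subunits of the complex, and each symbol was matched to its Ensembl identifier in the count tables, which list 51467 genes. They are *Exosc1*, *Exosc2* and *Exosc3* (cap subunits), *Exosc4*, *Exosc5*, *Exosc7*, *Exosc8* and *Exosc9* (ring subunits), and *Exosc10* and *Dis3* (nucleases). The genes described most closely are *Exosc5* (ENSMUSG00000061286, 7 exons on the plus strand of chromosome 7, 25659164 to 25671368 in GRCm38), *Exosc8* (ENSMUSG00000027752, 11 exons on the minus strand of chromosome 3, 54728678 to 54735393) and *Exosc1* (ENSMUSG00000034321, 8 exons on the minus strand of chromosome 19, 41922292 to 41933423). All 10 passed the filter on low counts and are among the 14518 genes tested.

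The ring and the cap of the exosome form a channel without nuclease activity, through which RNA is threaded. The degrading enzymes are DIS3, which sits at the exit of the channel, and EXOSC10, which is mostly nuclear. In the nucleus the complex trims and destroys rRNA precursors, promoter transcripts and unspliced RNA, and in the cytoplasm it removes mRNA bodies after the poly(A) tail has been shortened. DDX6 binds the deadenylation complex and the decapping complex, the latter of which opens mRNA to decay from the 5′ end. In the study, its loss raised the translation of miRNA targets with little change in their mRNA stability.

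The cells were V6.5 ESCs grown in serum with LIF and 2i. There were 3 wild-type samples and 4 *Ddx6* KO samples, 2 of each of 2 KO clones made by CRISPR-Cas9 cutting of *Ddx6*, one clone with a small insertion and the other with a large deletion. Each sample was labelled with 500 µM 4-thiouridine (4sU) for 30 min and its RNA was divided, so that nascent RNA (4sU) and total RNA were sequenced from the same extract, in 14 libraries. Samples are called cultures below, although the labels do not say that they were grown apart, and p values cover the spread between these samples only. Each clone descends from 1 cell, so that what is common to both clones may belong to the loss of DDX6 or to cloning, which cannot be told apart here.

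The 4sU libraries held 2441639 to 3570192 summed counts and the total RNA libraries 5724179 to 7369651. Levels are given as CPM, the count of a gene per 1000000 counts of its library. A floor of 3 counts was worth 1.23 CPM in the shallowest 4sU library and 0.524 CPM in the shallowest total RNA library, and the exosome genes were far above it, with 55 counts (*Exosc7*) to 613 counts (*Dis3*) in 4sU libraries and 175 counts (*Exosc4*) to 1026 counts (*Dis3*) in total RNA libraries. Floors cover counting error only. *Ddx6* itself stood at 371 ± 31.6 CPM (SD, n = 3) in wild-type total RNA and at 42.6 ± 23.7 CPM (SD, n = 4) in KO total RNA, which the quasi-likelihood test of edgeR put at a log2 fold change of -3.12 with an SE of 0.32 and an adjusted p of 9.22e-06. The 10 ESC markers summed to between 5210 and 5330 CPM in wild-type and between 5690 and 6010 CPM in KO total RNA, while 7 fibroblast markers summed to at most 5.34 CPM in wild type and between 11.3 and 13.1 CPM in KO, 6 primed markers to 132 to 147 CPM and 84.1 to 96.6 CPM, 5 endoderm markers to 5.26 to 7.86 CPM and 6.79 to 8.04 CPM, and 5 trophoblast markers to 46.5 to 58.3 CPM and 49.4 to 59.8 CPM. Of the 7 fibroblast markers, 5 were at 0 in all wild-type and 2 in all KO total RNA libraries. The part of other cell types in the changes below was not tested.

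CPM are given after TMM scaling, which sets libraries against each other on the assumption that most genes do not change. After this scaling, 31% of tested genes were called lower and 19.5% higher in total RNA at an adjusted p below 0.05. In nascent RNA these shares were 21% and 20.6%, and how far the assumption holds was not tested. The choice of scaling matters here. Scaling by library size alone moved the median change of all genes by 0.21 on the log2 scale in nascent RNA and by 0.16 in total RNA, towards higher values in KO. Changes are therefore also given relative to the median of all tested genes, which was 0.00 in nascent RNA, -0.10 in total RNA and -0.09 for total over 4sU. These medians depend on TMM over both assays together. With TMM run within each assay, the median in total RNA was -0.01. In bulk RNA, fewer cells with a transcript and less of it per cell cannot be told apart.

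Sequences near these genes were read for the signals that the study turned on. Mature miRNAs of the ESCC family, the dominant miRNA family of ESCs, share a seed (bases 2 to 8, in capitals). Sequences of 5 of them, chosen by name, were taken from RefSeq (GRCm38.p6). A member of each genomic cluster is shown, from chromosome 7 and chromosome 3, since the seed is the part that would pair with a target:
mmu-miR-294-3p: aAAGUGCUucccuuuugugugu
mmu-miR-302b-3p: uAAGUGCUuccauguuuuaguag
Of the 10 exosome genes, 1 held the full 8-base match AGCACTTA in the 3′ UTR of its principal transcript, as did 3.34% of 12104 tested protein-coding genes. That gene was *Exosc4*. The match lies at chr15:76329777-76329784 on the plus strand (GRCm38), 62 bases into a 3′ UTR of 962 bases, and is shown in capitals inside its 30-base window, chr15:76329766-76329795:
*Exosc4* 3′ UTR: ccttactgtacAGCACTTAaaagctgctca
The 6-base core GCACTT was found in 2 exosome genes, *Exosc4* and *Exosc1*, against 31.2% of genes. The *Exosc1* match is shown because *Exosc1* was the 1 gene of the 10 whose total over 4sU passed the test below, and it lies at chr19:41923950-41923955 on the minus strand, in a 3′ UTR of 416 bases (window chr19:41923937-41923966):
*Exosc1* 3′ UTR: agaggacttcaGCACTTcagctacttctaa
No exosome gene held the AU-rich element TATTTAT, which 28.5% of genes did. Their 3′ UTRs were short: in 9 of 10 the length was under the median of 1017 bases, down to 87 bases in *Exosc10*, and *Dis3* had the longest at 2176 bases. A match is a stretch of letters and not a shown site.

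Promoters were available for 8 of the 10 genes, in 9 sequences that run from 250 bases before to 50 bases after a start (RefSeq, GRCm38.p6). No sequence was available for *Exosc4* and *Exosc9*, which were called lower in nascent RNA below. Motifs were searched on both strands. GCATGCG, part of the palindrome that NRF1 binds, was in 2 of the 9 sequences, those of *Exosc5* and *Exosc10*, and in 3.58% of 32851 promoters. CCGGAAG (ETS) was in 3 of 9, against 8.86%, CCAAT was in 4 of 9, against 37.4%, and CACGTG (E-box) was in 1 of 9, against 7.15%. AAGATGG (part of the YY1 motif) was in 1 of 9, against 6.34%, and TATAAA, the core of the box named after it, was in 0 of 9, against 13.6%. None of these motifs contains another. The promoters of *Exosc5*, *Exosc8* and *Exosc10* are printed because nascent RNA of these genes fell in KO cells, and that of *Exosc1* because nascent RNA did not fall there while total RNA did. Capitals mark the searched motifs on either strand, and the *Exosc8* sequence holds none of them. For *Exosc10*, which has 2 starts in the table, the upstream one is shown.
*Exosc5*, chr7:25658903-25659202, plus strand: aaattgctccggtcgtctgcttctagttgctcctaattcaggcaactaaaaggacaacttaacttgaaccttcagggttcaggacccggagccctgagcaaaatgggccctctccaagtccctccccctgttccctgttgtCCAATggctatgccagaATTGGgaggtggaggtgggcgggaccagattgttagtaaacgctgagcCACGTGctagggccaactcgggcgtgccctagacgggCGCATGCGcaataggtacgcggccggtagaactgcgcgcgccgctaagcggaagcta
*Exosc8*, chr3:54735315-54735614, minus strand: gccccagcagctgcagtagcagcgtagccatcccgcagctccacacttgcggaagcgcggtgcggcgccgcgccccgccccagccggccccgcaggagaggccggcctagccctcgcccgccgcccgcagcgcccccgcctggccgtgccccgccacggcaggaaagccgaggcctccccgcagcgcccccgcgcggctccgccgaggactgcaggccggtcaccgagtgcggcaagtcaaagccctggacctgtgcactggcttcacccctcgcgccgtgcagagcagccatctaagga
*Exosc10*, chr4:148558169-148558468, plus strand: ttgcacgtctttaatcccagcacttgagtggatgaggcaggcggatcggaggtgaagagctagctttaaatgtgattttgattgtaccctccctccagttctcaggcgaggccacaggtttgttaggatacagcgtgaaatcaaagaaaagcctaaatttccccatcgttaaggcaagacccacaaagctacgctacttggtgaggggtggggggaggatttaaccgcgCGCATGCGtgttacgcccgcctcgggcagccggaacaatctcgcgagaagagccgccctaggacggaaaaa
*Exosc1*, chr19:41933265-41933564, minus strand: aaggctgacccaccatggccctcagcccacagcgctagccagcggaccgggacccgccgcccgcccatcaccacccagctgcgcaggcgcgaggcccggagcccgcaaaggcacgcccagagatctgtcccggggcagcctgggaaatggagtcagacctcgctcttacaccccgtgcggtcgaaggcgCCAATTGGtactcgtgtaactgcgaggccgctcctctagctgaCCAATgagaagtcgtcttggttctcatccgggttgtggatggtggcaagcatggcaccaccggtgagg

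Levels of different genes can be set side by side only per length. In wild-type cells, per kb of exon, total RNA ranged from 20.9 ± 1.08 CPM (*Exosc4*) to 72.2 ± 7.38 CPM (*Exosc8*, SD, n = 3 for all wild-type values). Between these ends, *Exosc10* (54.8 CPM per kb), *Exosc9* (52.9), *Exosc7* (50.5), *Exosc2* (49.5) and *Exosc3* (47.7) were neighbours whose ranges over cultures overlapped from each to the next. *Exosc5* (41.3 CPM per kb) and *Dis3* (39.0 ± 1.77 CPM per kb) also overlapped, and *Exosc1* (26.2 CPM per kb) stood apart from both of its neighbours. *Exosc8* at the top and *Exosc4* at the bottom did not overlap with the gene beside them.

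The order in nascent RNA was different below the first place. *Exosc8* led there as well with 66.8 ± 2.72 CPM per kb, followed by *Exosc3* (51.3) and *Dis3* (41.5), while *Exosc7* (20.6) and *Exosc4* (19.9) came last with overlapping ranges. *Exosc7*, a ring subunit, thus had a nascent level close to that of *Exosc4* and a total level of 50.5 against 20.9 CPM per kb. In KO cells *Exosc8* still led and *Exosc4* was still last, in both assays, with the exonic length deposited beside the counts. The length matters for genes with several transcript forms. For *Dis3* the principal transcript of Gencode M21 (5150 bases) is longer than the deposited exonic length (3722 bases). Its values by that transcript are therefore divided in part by bases outside the counted exons, which lowers them. With the length of the principal transcript, *Exosc1* led KO nascent RNA at 56 ± 4.46 CPM per kb, ahead of *Exosc8* at 51.8 ± 4.57, and in wild type it took rank 3 at 49.6 CPM per kb, where *Dis3* took rank 6 at 30. In wild-type total RNA, that length put *Exosc1* (41.8 CPM per kb) above *Dis3* (28.2). *Exosc4* was last with either length, and *Exosc8* led total RNA and wild-type nascent RNA with either length. The lead of *Exosc8* over *Exosc3* in nascent RNA, 66.8 against 51.3 CPM per kb in wild type, was 51.8 against 49.4 in KO, where the ranges overlapped.

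**Figure D1:**
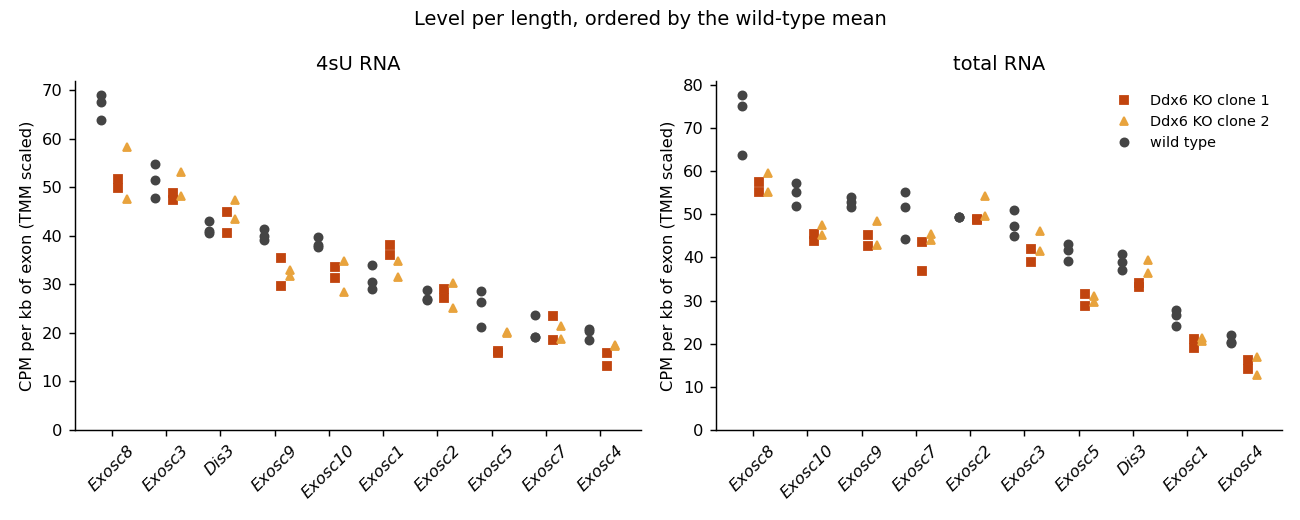
CPM per kb of exon (y axis, TMM scaled) of the 10 exosome genes in 4sU RNA (left) and total RNA (right), ordered by the wild-type mean, with a point for each wild-type or KO culture. By the wild-type mean, *Exosc8* is highest and *Exosc4* lowest in both assays, and the middle of the order in total RNA lies between 47.7 and 54.8 CPM per kb in wild type.

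The ratio of total to nascent RNA follows how long a transcript lasts, on a scale without an absolute zero, so that its place among all tested genes is what can be read. In wild type the log2 ratio spread from -0.24 ± 0.11 (*Exosc1*) to 1.27 ± 0.20 (*Exosc7*). *Exosc7* exceeded 85.5% of the tested genes, *Exosc2* 74.1% and *Exosc5* 70.0%, with log2 ratios of 0.84 ± 0.06 and 0.71 ± 0.17 for the latter pair. *Exosc10* (63.4%) and *Exosc9* (59.9%) followed, *Exosc8* (50.9%) and *Exosc4* (49.8%) were near the middle, and *Dis3* (45.4%), *Exosc3* (45.1%) and *Exosc1* (41.6%) were below it. Transcripts for subunits of 1 complex thus ranged over places from 41.6% to 85.5% among genes. Their principal transcripts differed in length (1018 to 5150 bases) and in U content (19.7% to 26.4%), whose part in these places was not tested. The place of *Exosc7* rests on 55 to 56 counts in each wild-type 4sU library. In KO cells *Exosc7* again had the highest place, at 84.4%, followed by *Exosc2* at 78.9% and *Exosc5* at 75.5%, and *Exosc1* again had the lowest, at 29%.

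**Figure D2:**
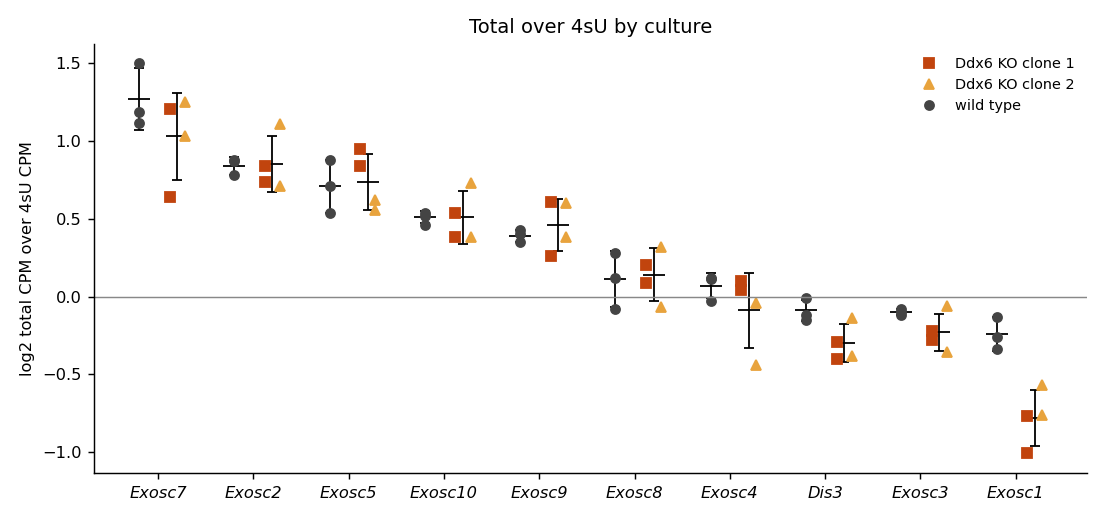
Log2 ratio of total to 4sU CPM (y axis, pseudocount 0.5 CPM) for each exosome gene, ordered by the wild-type mean, with a point per culture and bars for mean and SD. *Exosc1* at the right is the gene whose 4 KO cultures, at -1.01 to -0.57, all lie below its 3 wild-type cultures, at -0.34 to -0.13.

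The first comparison asked how the mRNA levels of the exosome changed without DDX6. In total RNA, 7 of the 10 genes were lower in KO at an adjusted p below 0.05 and 0 were higher, whereas 31% of all tested genes were lower and 19.5% were higher. The 7 were all 5 ring subunits, the nuclease *Exosc10* and the cap subunit *Exosc1*. Under scaling by library size alone they came down to 4 (*Exosc1*, *Exosc4*, *Exosc5* and *Exosc8*), with *Exosc2* called higher. With TMM run within each assay they came down to 5, without *Exosc7* (adjusted p = 0.15) and *Exosc9* (0.0888). The shares of all genes called under these 2 scalings are not given. In 6 of the 10 the 4 KO cultures all lay below the 3 wild-type cultures, as in 32% of all tested genes. All changes were small. The log2 fold changes of the 10 genes ran from -0.48 to 0.02 with a median of -0.26, where that of all genes was -0.10, and 0 of 10 also passed a log2 fold change of 1, which 10.1% of genes did with the same adjusted p.

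The lowest log2 fold changes were those of 2 ring subunits, *Exosc4* and *Exosc5*. *Exosc5* total RNA was 80.8, 83.5 and 75.8 CPM in the wild-type cultures, 60.9 and 55.7 CPM in KO clone 1, and 57.6 and 60 CPM in KO clone 2. Every KO culture was below every wild-type culture, and the log2 fold change was -0.45 (SE 0.08, adjusted p = 3.59e-06), or -0.35 relative to the median gene. *Exosc4* had 36.1, 39.7 and 36.6 CPM in wild type, while clone 1 had 29.3 and 25.5 CPM and clone 2 had 23.1 and 30.3 CPM. Here too the groups did not overlap, and the change was -0.48 (SE 0.10, adjusted p = 8.53e-05).

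*Exosc8* had 83, 97.6 and 101 CPM in wild type, while clone 1 had 71.6 and 74.6 CPM and clone 2 had 71.9 and 77.3 CPM. Its groups did not overlap either, with a log2 fold change of -0.35 (adjusted p = 5.73e-05, SE 0.07). *Exosc9* had wild-type values of 83.7 to 87.2 CPM and KO values of 69.1 to 78.4 CPM, and also fell (log2 fold change -0.24, SE 0.07, adjusted p = 0.00473), whose call was lost in 4 of 17 alternatives. Among its exonic bases, 378 (23.4%) lie opposite *Ccna2* on the other strand, and reads were counted by strand. *Exosc7* was the ring subunit with overlapping groups, from 46.7 to 58.1 CPM in wild type and from 38.9 to 47.9 CPM in KO. Its change of -0.25 (SE 0.09, adjusted p = 0.0191) kept the call in 8 of 17 alternatives and lost it without wild-type culture 1 (adjusted p = 0.0633), without wild-type culture 3 (0.169) or without culture 2 of clone 1 (0.122).

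**Figure D3:**
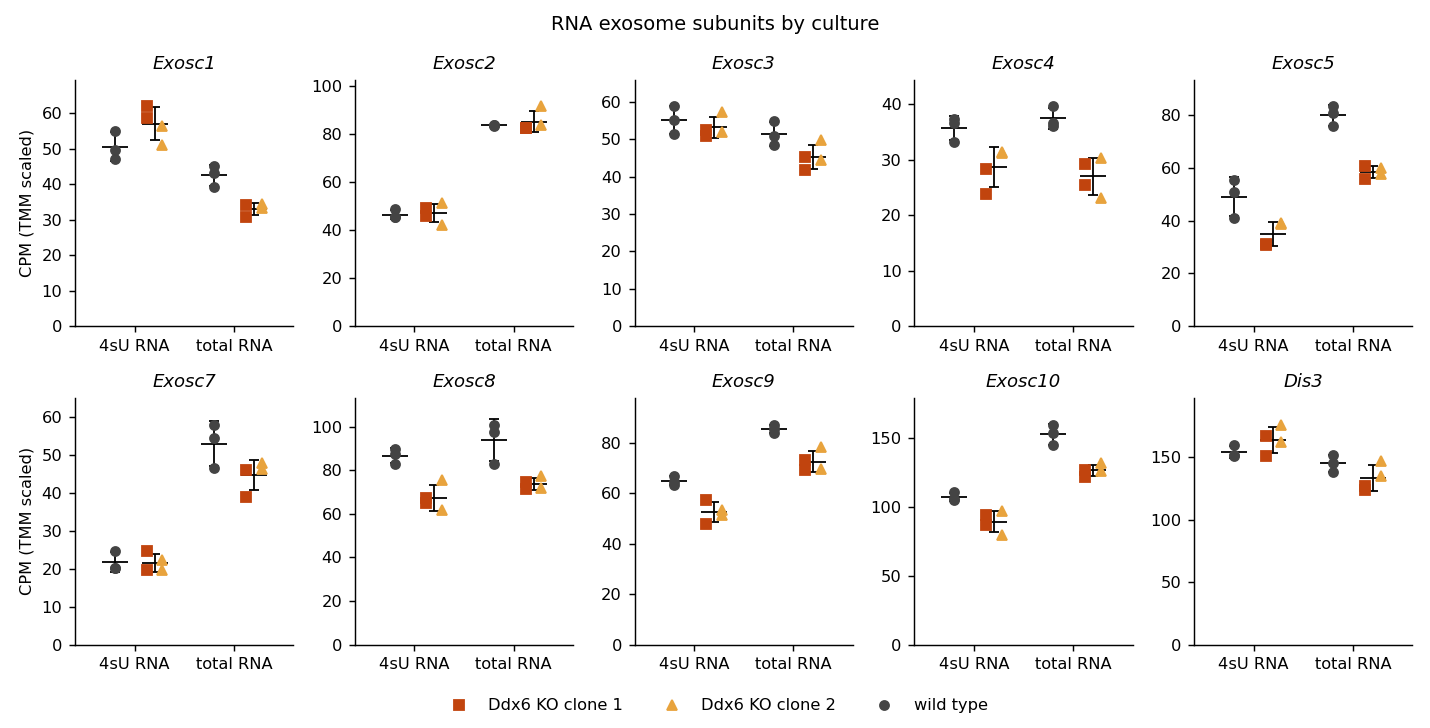
CPM (y axis from 0, TMM scaled) of each exosome gene in 4sU RNA and total RNA, with a point for each of 3 wild-type cultures and of 2 cultures of each KO clone, and bars for mean and SD of wild type and of all 4 KO cultures. In total RNA the KO points of *Exosc1*, *Exosc4*, *Exosc5*, *Exosc8*, *Exosc9* and *Exosc10* all lie below the wild-type points.

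Of the nucleases, *Exosc10* passed the test and *Dis3* did not. *Exosc10* total RNA was 145, 160 and 154 CPM in wild type, 122 and 127 CPM in clone 1 and 126 and 132 CPM in clone 2, without overlap, and its log2 fold change was -0.27 (SE 0.06, adjusted p = 0.000231). *Dis3* ranged from 138 to 152 CPM in wild type and from 124 to 147 CPM in KO, with a change of -0.12 (SE 0.06, adjusted p = 0.0992) that did not pass, and the difference between both nucleases was not tested. *Dis3* passed in 2 of 17 alternatives, with clone 1 alone (-0.20, adjusted p = 0.0203) and without culture 2 of clone 2 (-0.17, 0.0219). *Dis3* was close to the median gene, at -0.03 relative to it, and *Exosc10* was at -0.17.

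Of the cap subunits, *Exosc1* had 39.3, 45.1 and 43.2 CPM in wild-type total RNA, while clone 1 had 34 and 30.6 CPM and clone 2 had 34.4 and 33.2 CPM. The groups did not overlap, and the log2 fold change was -0.37 (adjusted p = 0.000593, SE 0.09). *Exosc2* was at 83.4 to 83.5 CPM in wild type and at 82.2 to 91.5 CPM in KO (log2 fold change 0.02, SE 0.07, adjusted p = 0.8). *Exosc3* had 48.5 to 54.9 CPM and 41.9 to 49.7 CPM (log2 fold change -0.18, SE 0.08, adjusted p = 0.0711). Neither of the latter passed the test, although *Exosc3* did in 2 of 17 alternatives, with replicate number as a block (log2 fold change -0.22, adjusted p = 0.0389) and without culture 2 of clone 2 (-0.22, 0.0315). *Exosc2* was called higher with library size alone (log2 fold change 0.18, adjusted p = 0.0307).

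The second comparison asked whether synthesis of these transcripts changed. In nascent RNA, 5 of 10 exosome genes were lower in KO (*Exosc4*, *Exosc5*, *Exosc8*, *Exosc9* and *Exosc10*) and 0 were higher. Of all tested genes, 21% were lower and 20.6% higher. With library size alone, 1 exosome gene was lower (*Exosc5*) and 2 were higher (*Exosc1* and *Dis3*), and the shares of all genes under that scaling are not given. The same 5 had all KO cultures below all wild-type cultures, as did 21.2% of tested genes. With the log2 fold change of 1 added, 0 of 10 passed, against 10.9%. The median log2 fold change of the 10 was -0.16, and that of all genes was 0.00.

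*Exosc5* had the lowest log2 fold change, with 55.4, 50.9 and 40.9 CPM in wild-type 4sU RNA, 31.3 and 30.8 CPM in KO clone 1, and 39 and 38.8 CPM in KO clone 2. Its log2 fold change was -0.47 (SE 0.12, adjusted p = 0.000626), beside -0.45 in total RNA. The nascent call held in 18 of 19 alternatives and was lost with clone 2 alone (-0.32, adjusted p = 0.0531). With clone 1 alone the log2 fold change was -0.64 (adjusted p = 0.000204). *Exosc8* had 87.7, 89.8 and 82.9 CPM in wild type, while clone 1 had 67.1 and 64.8 CPM and clone 2 had 75.6 and 61.8 CPM. The groups did not overlap, and the log2 fold change of -0.37 (adjusted p = 0.000761, SE 0.09) stood beside one of -0.35 in total RNA.

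*Exosc9* changed by -0.31 (SE 0.10, adjusted p = 0.007) and *Exosc10* by -0.27 (SE 0.08, adjusted p = 0.00508), beside changes of -0.24 and -0.27 in total RNA. Each of these calls was lost in 3 of 19 alternatives, with library size alone, with the re-sequencing run alone (log2 fold change -0.14 and adjusted p = 0.516 for *Exosc9*, -0.20 and 0.169 for *Exosc10*) and without the low count filter (adjusted p = 0.0612 and 0.0585). *Exosc4* changed by -0.31 (SE 0.13, adjusted p = 0.049), a call that held in 4 of 19 alternatives. It was lost when any of 5 of the 7 cultures was left out, all but both cultures of clone 2, with adjusted p values of 0.0514 to 0.173 over these 5. The other 5 genes had log2 fold changes of -0.05 to 0.17 in nascent RNA. They were all 3 cap subunits, *Exosc7* and *Dis3*, and none of them passed the test.

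**Figure D4:**
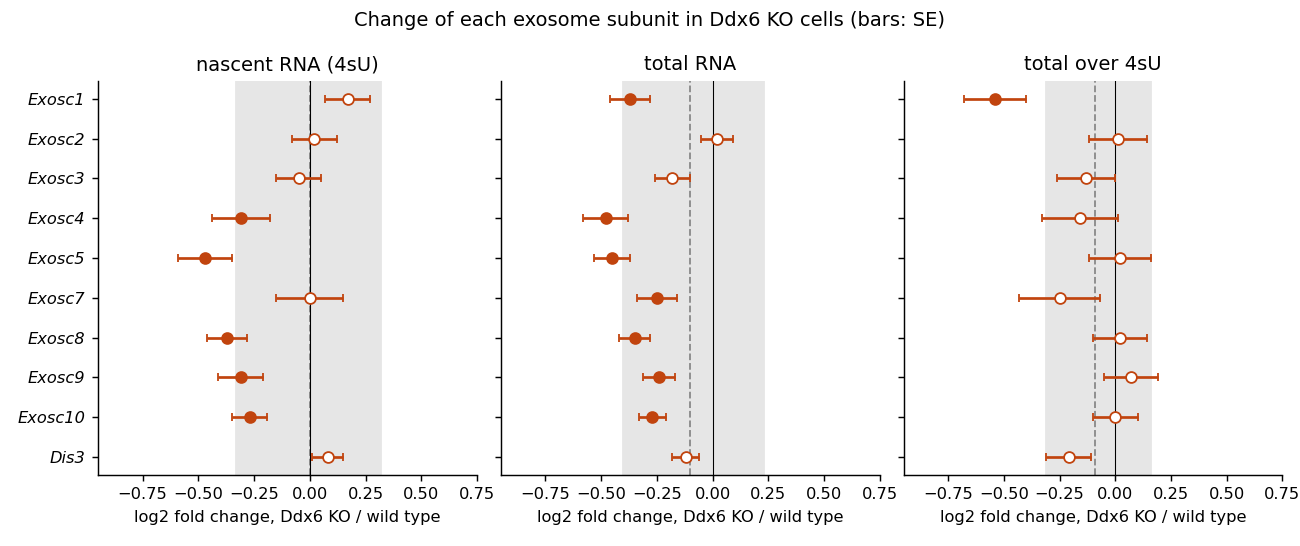
Log2 fold change of KO over wild type (x axis) with its SE for each exosome gene in nascent RNA, total RNA and total over 4sU. Filled points have an adjusted p below 0.05, the grey band is the middle 50% of all tested genes and the dashed line is their median. In nascent RNA 5 points are filled, in total RNA 7, and for total over 4sU *Exosc1* alone.

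The third comparison asked whether the amount of total RNA per nascent RNA changed, by the interaction of genotype and assay. Here 1 of 10 exosome genes was lower in KO, *Exosc1*, and 0 were higher, against 8.58% of tested genes lower and 3.79% higher. In 1 of 10 all KO cultures lay below all wild-type cultures, against 15.5%, and with the log2 fold change of 1 added 0 of 10 passed, against 1.08%. The median of the 10 log2 changes was -0.07, beside -0.09 for all genes.

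*Exosc1*, a cap subunit, had log2 ratios of -0.26, -0.13 and -0.34 in the wild-type cultures, of -0.77 and -1.01 in clone 1 and of -0.57 and -0.76 in clone 2. The groups were apart, and the change was -0.54 (SE 0.14, adjusted p = 0.00575), or -0.45 relative to the median gene. The change was made up of a lower total level and a nascent level that was not lower, at 47, 49.5 and 55 CPM in wild type and at 58.6, 62, 51.1 and 56.5 CPM in KO. Nascent RNA of *Exosc1* had a log2 difference of 0.17 (SE 0.10, adjusted p = 0.192), with overlapping groups. The call on the ratio held in 17 of 20 alternatives, and was lost without wild-type culture 2 (adjusted p = 0.0591), with the single-end run alone (0.0609) and with clone 2 alone (0.11).

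None of the 5 ring subunits passed this test. *Exosc5*, *Exosc8* and *Exosc9* had changes in total over 4sU of 0.02 (SE 0.14), 0.02 (SE 0.12) and 0.07 (SE 0.12), and the nuclease *Exosc10* one of -0.00 (SE 0.10). For these 4 genes, the log2 changes in total and in nascent RNA thus differed by at most 0.07. *Exosc4*, which carries the ESCC seed match, had a change of -0.16 (SE 0.17, adjusted p = 0.6), and *Exosc7* one of -0.25 (SE 0.18, adjusted p = 0.426). A p that misses the threshold does not show that these ratios were the same in both genotypes. *Dis3*, with a change of -0.21 (SE 0.10, adjusted p = 0.159), did not pass either.

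The clones, which carry different mutations, were then compared. In a model with the clones apart, 0 of 10 exosome genes differed between clone 2 and clone 1 in nascent RNA, total RNA or total over 4sU (edgeR), against 0.172%, 0.296% and 0.00689% of all tested genes. At an unadjusted p below 0.05 the counts were 1 (*Exosc5*), 1 (*Dis3*) and 0, for which the share of all tested genes is not given. At the adjusted p, DESeq2 and limma-voom also called 0. The differences ran from -0.16 to 0.32 on the log2 scale in nascent RNA, from -0.04 to 0.17 in total RNA and from -0.31 to 0.23 for total over 4sU. With 2 cultures per clone, a difference that misses the threshold does not show that the clones were the same. Against wild type, total RNA was lower in 8 of 10 genes with clone 1 alone, where 27% of all tested genes were, and in 5 of 10 with clone 2 alone, where 26.7% were. The medians of the 10 log2 fold changes were -0.30 and -0.22, beside -0.09 over all genes with either clone.

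**Figure D5:**
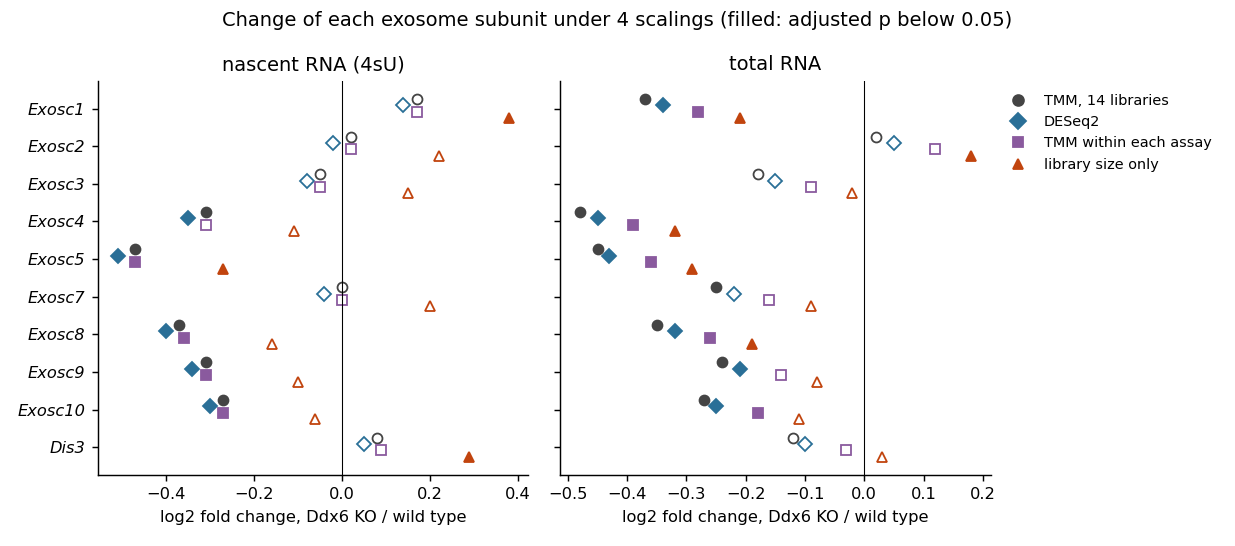
Log2 fold change of KO over wild type (x axis) for each exosome gene in nascent RNA and total RNA under 4 scalings, filled where the adjusted p is below 0.05. Library size alone (triangles) lies to the right of the other scalings throughout, with 4 genes lower and 1 higher in total RNA, and 1 lower and 2 higher in nascent RNA.

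The remaining ring subunit, *Exosc6*, was not among the 10 genes. It had 0 counts in every library, and all 1326 of its exonic bases in the deposited annotation are shared on the same strand with *Aars*, so no level is given for it. Genes that work with the exosome or beside it were taken from 3 lists, 12 nuclear cofactors, 5 cytoplasmic cofactors and 7 other exonucleases, all of them tested. In total RNA, 8 of the 24 were lower and 2 were higher (4 and 2 of the nuclear cofactors, 2 and 0 of the cytoplasmic ones, 2 and 0 of the exonucleases), against 31% and 19.5% of all tested genes, with a median log2 fold change of -0.14 and a range of -0.46 to 0.38. In nascent RNA 2 of the 24 were lower and 4 were higher, against 21% and 20.6% of all tested genes, with a range of -0.62 to 0.43. For total over 4sU 4 were lower and 0 were higher, against 8.58% and 3.79%, with a range of -0.64 to 0.57.

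Among these, 3 genes passed the test with a log2 change over 0.5. *Ttc37*, a subunit of the SKI complex that feeds mRNA into the cytoplasmic exosome, was higher in nascent RNA (45.9 ± 5.09 CPM in wild type, n = 3, and 60.4 ± 5.39 CPM in KO, n = 4) and lower in total RNA (134 ± 0.645 and 114 ± 5.13 CPM), and its total over 4sU changed by -0.64 (SE 0.12, adjusted p = 0.000125), a call that held in all 20 alternatives. Its call in total RNA held in 14 of 17, and with library size alone the log2 fold change was -0.08 (adjusted p = 0.309), while its call in nascent RNA was lost with the single-end run alone (0.23, adjusted p = 0.142). *Dis3l2*, an exonuclease for uridylated RNA that works outside the exosome, changed by -0.51 in total over 4sU (SE 0.15, adjusted p = 0.0153). Its total RNA did not pass (-0.16, adjusted p = 0.117), while its nascent RNA was higher (0.35, adjusted p = 0.0163). The nascent change was 0.07 with the single-end run alone (adjusted p = 0.749) and 0.81 with the re-sequencing run alone (adjusted p = 0.0005). The call on the ratio held in 15 of 20 alternatives, over which the log2 change ran from -0.97 to -0.22. It was lost without wild-type culture 3 (-0.35, adjusted p = 0.173), with the single-end run alone (-0.22, 0.503), with clone 2 alone (-0.45, 0.107), without the low count filter (-0.46, 0.0721) and with TMM within each assay (-0.42, 0.0625). *Pelo*, which rescues stalled ribosomes together with HBS1L, fell in nascent RNA (55.3 ± 8.5 and 35.8 ± 4.07 CPM, log2 fold change -0.62, SE 0.15, adjusted p = 0.00069), and its total RNA was 21.1 ± 6.2 and 20.5 ± 2.96 CPM. Its total over 4sU did not pass (0.57, SE 0.20, adjusted p = 0.0617), and the groups overlapped. That change passed in 5 of 20 alternatives, and was 0.26 without wild-type culture 1 (adjusted p = 0.477).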

How the data were processed

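The deposited values are raw counts per gene, which the authors made by strand with featureCounts 1.5.3 on Gencode M14 exons, after trimming (cutadapt 1.14) and unique mapping to mm10 (STAR 2.5.3a). Deposited 4sU counts come from a single-end run and a paired-end re-sequencing run, which were summed here. The smallest 4sU library held 2441639 counts and the smallest total RNA library 5724179. The 92 spike-in rows held 0 counts and were left out.

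A gene was tested if 3 or more libraries reached 3 CPM, which 14518 did. Counts of all 14 libraries were scaled with TMM, and edgeR 4.0.16 (R 4.3.3) gave quasi-likelihood tests from a robust fit of genotype, assay and their interaction, in place of the limma model of the study. Benjamini-Hochberg adjustment ran over the 14518 genes of each contrast. The study's rule for a call, an adjusted p below 0.05 with an absolute log2 fold change above 1, was kept beside the adjusted p alone. Log2 ratios of total to 4sU used a pseudocount of 0.5 CPM. The code was tested on simulated data of 14518 genes: of 67 genes planted at a log2 change of 0.5, 64 were called in total RNA and 38 for total over 4sU, and at 1.0 all 67 were called in both. Changes were planted in KO total RNA, up and down in turn, in genes with a mean CPM well above the filter, and all other genes were unchanged. These rates therefore do not cover genes of low counts or data in which many genes change.

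Positions, UTRs and exons came from Gencode M21, of the same build as mm10, and 51274 of 51467 genes were matched. miRNA and promoter sequences came from RefSeq (GRCm38.p6). Named genes are the 10 exosome genes, *Ddx6*, and from 3 further lists each gene with an adjusted p below 0.05 and an absolute log2 change above 0.5 in any comparison. Members, lists and tests were chosen with earlier results of these data known. Alternatives were DESeq2 1.42.0, limma-voom (limma 3.58.1), other scalings and filters, each run alone, blocks, each clone alone and each culture left out. The 4sU and total RNA libraries of a culture share 1 extract, and their deviations from the group means correlated at 0.00352 to 0.125 over genes.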

Additional observations from a re-analysis of the deposited data

Results flagged for a closer look

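Of 30 groups of 4 KO cultures (10 exosome genes in 4sU RNA, total RNA and their log2 ratio), 1 held a culture far from the other cultures by Dixon's criterion, where chance alone would give about 1.5. In *Exosc2* total RNA, culture 2 of clone 2 stood at 91.5 CPM and the other KO cultures at 82.2 to 83.7 CPM, a gap of 0.838 of the whole range, just above the critical value. The wild-type cultures were at 83.4 to 83.5 CPM.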

How the results depend on the processing

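With the adjusted p alone in place of the rule with a log2 fold change of 1, the 0 calls among the 10 exosome genes became 5 in nascent RNA, 7 in total RNA and 1 for total over 4sU. No other alternative added a call under the rule with the fold change. With library size only, genes lower in nascent RNA came down to 1 and 2 were higher, and in total RNA 4 were lower and 1 was higher. This scaling moved all genes together, as given in the report. Genes lower in nascent RNA numbered 2 without the low count filter, 2 with the re-sequencing run only and 3 with clone 2 only. With clone 2 only, 18% of all tested genes were lower in nascent RNA. For the other alternatives in this section, the share of all genes called is not given. In total RNA, 5 exosome genes were lower with TMM within each assay, and 5 without the low count filter. The gene lower for total over 4sU was lost (0) with the single-end run only and with clone 2 only, and over cultures left out in turn the count was 0 to 1. Leaving out a culture gave 4 to 5 genes lower in nascent RNA and 6 to 9 in total RNA. The wild-type median of the log2 ratio over the 10 genes, 0.28, was 0.32 with the re-sequencing run only. Causes of these shifts other than scaling were not tested. With the length of the principal transcript, 4 and 8 genes changed rank in nascent RNA of wild type and KO, and 2 and 3 in total RNA. That length of *Dis3* includes bases outside its deposited exons. Leaving out a culture changed 0 to 2 ranks in nascent RNA of either genotype, 0 to 3 in wild-type total RNA and 2 in KO total RNA. Replicate numbers across genotypes are shared numbers only, as same-numbered libraries correlated at -0.0381 to 0.0885. With them as a replicate block, 4 genes were lower in nascent RNA, 7 in total RNA and 1 for total over 4sU. With the culture as a block the last count was also 1. Depth limits the ratio too, since a 4sU library held as few as 55 counts for *Exosc7*.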
